A study of Mus musculus with 24 samples.

Results

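Loss of Irf5 was examined in dendritic cells stimulated with CpG-B: 3 arrays of Irf5-KO cells with CpG-B were set against 3 arrays of WT cells with CpG-B, 6 of the 24 arrays of the study. The arrays were chosen by their titles alone. The cells were grown from mouse bone marrow for 9 days with human Flt3 ligand at 100 ng/ml, a growth factor that yields plasmacytoid and conventional dendritic cells together, and CpG-B was given at 150 nM for 6 h. All animals were on a C57BL/6 background. The Irf5-KO animals lack Irf5, and the WT animals carry both Irf5 and Lyn, a Src-family tyrosine kinase. Further groups of 3 arrays each serve as comparisons: DKO cells (lacking Lyn and Irf5) and Lyn-KO cells with CpG-B, and Irf5-KO and WT cells without stimulation. The labels call the 3 arrays of a group biological triplicates but do not tie them to animals, so p-values measure the spread between these cultures. The labels do not say how the Irf5 and Lyn alleles were made.

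IRF5 is a transcription factor of the interferon regulatory factor family. In dendritic cells, unmethylated CpG DNA is recognised in endosomes by TLR9, which signals through the adaptor MyD88 to IRF5, IRF7 and NF-kB. IRF5 is known for driving inflammatory cytokine and type I interferon genes in this pathway, and interferon that is secreted acts back on the cells through its receptor to switch on interferon-stimulated genes. The comparison asks which parts of the CpG-B transcriptome differ when IRF5 is missing.

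IRF proteins bind interferon-stimulated response elements (ISRE), whose core was searched here on both strands as GAAA, any 2 bases and GAAA again, beside the NF-kB site and the AP-1 site TGANTCA. With ISRE and NF-kB matches in capitals, these are the 250 bases before the RefSeq start site (GRCm38.p6) of genes on which the results turn: interferon genes, the cytokine genes Il19 and Il6, and Ifit1, an interferon-stimulated gene. They were picked after their values were known.
Ifnb1 (chr4:88522795-88523044, minus strand): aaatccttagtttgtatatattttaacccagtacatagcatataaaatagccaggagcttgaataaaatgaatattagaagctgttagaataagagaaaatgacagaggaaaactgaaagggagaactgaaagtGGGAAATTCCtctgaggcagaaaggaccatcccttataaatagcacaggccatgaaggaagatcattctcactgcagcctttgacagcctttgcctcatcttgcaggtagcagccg
Ifna1 (chr4:88849837-88850086, plus strand): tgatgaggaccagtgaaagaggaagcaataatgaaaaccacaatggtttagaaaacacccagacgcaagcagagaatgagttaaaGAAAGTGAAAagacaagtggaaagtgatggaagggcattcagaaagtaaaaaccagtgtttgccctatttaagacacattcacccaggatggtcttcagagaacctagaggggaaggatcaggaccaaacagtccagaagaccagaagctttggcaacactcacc
Il19 (chr1:130940116-130940365, minus strand): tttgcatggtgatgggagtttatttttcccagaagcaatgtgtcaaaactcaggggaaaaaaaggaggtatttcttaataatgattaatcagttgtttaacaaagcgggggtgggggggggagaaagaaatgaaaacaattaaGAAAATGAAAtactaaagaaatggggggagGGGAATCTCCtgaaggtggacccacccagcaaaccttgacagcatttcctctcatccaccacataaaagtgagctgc
Il6 (chr5:30012864-30013113, plus strand): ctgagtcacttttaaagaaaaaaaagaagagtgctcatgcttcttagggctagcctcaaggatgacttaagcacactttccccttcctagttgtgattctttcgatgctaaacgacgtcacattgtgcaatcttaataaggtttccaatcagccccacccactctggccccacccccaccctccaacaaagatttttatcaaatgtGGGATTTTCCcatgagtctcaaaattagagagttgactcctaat
Ifit1 (chr19:34640639-34640888, plus strand): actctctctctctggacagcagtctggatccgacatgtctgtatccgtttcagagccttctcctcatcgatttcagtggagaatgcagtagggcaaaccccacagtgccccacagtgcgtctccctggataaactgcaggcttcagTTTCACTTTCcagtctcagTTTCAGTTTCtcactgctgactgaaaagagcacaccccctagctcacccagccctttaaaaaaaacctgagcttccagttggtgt

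Counted from the RefSeq start site, the ISRE match of Ifna1 begins at base -165 and that of Il19 at -107, and Ifit1 has matches at -104 and -85 that read on the opposite strand. The NF-kB matches begin at -116 in Ifnb1, -77 in Il19 and -44 in Il6. Il6 also holds an AP-1 match at -249, left in lower case. Over the 300 bases from 250 before to 50 after the start, 3.99% of 27025 genes held the ISRE, 9.55% the NF-kB site and 8.97% the AP-1 site. Among the interferon genes measured here, 8 of 13 with a window held the ISRE (61.5%), all of them Ifna genes or Ifnab, and 1 of 13, Ifnb1, held the NF-kB site. The ISRE was found in 16 of 33 antiviral interferon-stimulated genes (48.5%) and in 9 of 10 interferon-inducible GTPases (90%). A match describes these letters only.

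All signals below are log2 values of an array's processed signal minus the 75th percentile of that array, so a difference of 1 is a 2-fold change, and no value is a level that can be set against another probe's. Between 46.1% and 50.6% of the spots of the Irf5-KO arrays and between 46.0% and 51.0% of those of the WT arrays were well above background, no spot was saturated, and arrays of a group correlated at 0.9918 to 0.9938. With 3 arrays a group, the number of arrays limits the precision. The bulk RNA of a culture cannot tell fewer cells of a type from less RNA per cell. Markers of the label's cell types were measured. Each of the 6 arrays gave a clear signal over background for the plasmacytoid markers Siglech and Bst2 and the type 1 conventional marker Clec9a. Bst2 is also an antiviral interferon-stimulated gene of the list below. Of 9 type 2 conventional markers tested, 0 were below background on all 6 arrays, and of 13 type 1 markers 2 were. Tested genes had already passed a detection filter. Of 16 B lineage genes 0 were below background too, so these counts are not specific to a cell type. Cd209a, a member of that list, was measured on 0 of 3 Irf5-KO and 1 of 3 WT arrays and does not stand for the list.

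The Irf5 probe gave 4.59, 4.75 and 5.07 on the arrays labelled Irf5-KO, against 4.23, 4.22 and 4.04 on the WT arrays, a log2 change of 0.64 (SE 0.09, adjusted p = 2.8e-05). The signal was thus higher in the cells that lack the gene, and the 2 groups did not overlap. In DKO cells with CpG-B it was 5.17, 5.40 and 5.17, against 4.49, 4.52 and 4.46 in Lyn-KO cells. Without stimulation it ran the other way, at 4.42, 4.39 and 4.49 in Irf5-KO against 4.67, 4.79 and 4.73 in WT cells. Neither labels nor files place the probe relative to the deleted part, so the signal checks nothing about the labels. The neighbourhood of Irf5 on chromosome 6 was checked as well: within 10 Mb of it, 16 genes were higher and 7 lower of 61 tested (37.7% called), and within 20 Mb 34 were higher and 14 lower of 125 (38.4%), against 30.9% of all named genes. Dock2, a regulator of leukocyte migration, was measured at 1.53, 1.51 and 1.49 in Irf5-KO cells and 1.17, 1.24 and 1.09 in WT cells (log2 change 0.34, adjusted p = 0.00976).

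Across 20209 features, 5154 (25.5%) differed between Irf5-KO and WT cells with CpG-B at an adjusted p under 0.05 (limma, Benjamini-Hochberg over all features), the threshold at which a feature is called below. Of these, 2914 (14.4%) were higher and 2240 (11.1%) lower in Irf5-KO cells, and 379 (1.88%) and 395 (1.95%) passed a 2-fold change. The median change over all features was 0.02. Among the named genes, from which the lists below are drawn, 30.9% were called. The 379 features that were at least 2-fold higher had a median log2 change of 1.25 with CpG-B and 0.13 without stimulation. The 395 that were at least 2-fold lower had medians of -1.50 and -0.07. The difference between the Irf5 effect with CpG-B and that without stimulation passed its own test, the interaction, for 2555 features overall (12.6%), 5.16% with a more negative change with CpG-B, among them 202 of the 379 higher (53.3%) and 288 of the 395 lower ones (72.9%). The 2 effects share no arrays, but the interaction contains the contrast that chose these features.

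Interferon genes were lower without Irf5. Of 14 type I and III interferon genes tested, 0 were higher and 11 lower, with a median change of -0.97 against 0.02 over all features, and the arrays of 13 did not overlap, all lower in Irf5-KO cells (17.6% of all features did so). The 24 arrays lay on 3 slides with the 8 groups represented once on each, and within a slide the list's median was -0.90, -1.40 and -0.58. Over the members whose probes were well above background on all 24 arrays, unstimulated ones included, it was -0.59. That is a smaller set than the 14, and -0.59 is also the value of Ifnl3 alone. It is therefore no second estimate of the median of the whole list. Ifnb1, which encodes interferon beta, gave 0.30, -0.21 and 0.15 in Irf5-KO cells, against 2.47, 2.51 and 1.97 in WT cells. Every Irf5-KO array lay more than 1 unit below every WT array, a log2 change of -2.24 (SE 0.25, adjusted p = 1.92e-06) that amounts to a 4.71-fold difference. The same gene differed by -2.23 between DKO and Lyn-KO cells.

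The interferon alpha genes showed smaller changes of closely similar size. Ifna1 gave 1.46, 0.84 and 1.03 in Irf5-KO cells, against 2.26, 2.18 and 1.77 in WT cells, a log2 change of -0.96 (SE 0.15, adjusted p = 9.19e-05). Over 10 numbered Ifna genes and Ifnab, changes ran from -1.15 to -0.89, and 9 of the 11 passed the test. Ifna7 (-0.99, adjusted p = 0.0973) and Ifna13 (-1.03, adjusted p = 0.0827) did not. Ifnab (-0.99), Ifna12 (-0.89), Ifna14 (-0.91) and Ifna16 (-0.92) kept their call whichever array was left out. Ifna2 (-1.0), Ifna4 (-1.05), Ifna5 (-0.96) and Ifna11 (-1.15) lost it on leaving out Irf5-KO replicate 2, with adjusted p of 0.0695, 0.179, 0.0637 and 0.157, and likewise without WT replicate 1 or WT replicate 2. Ifna4 and Ifna11 also lost it without Irf5-KO replicate 3 and with no filter on dim probes, and Ifna11 under quantile normalisation (adjusted p = 0.0519). Ifna4 stood at -0.66 under normexp, a model-based background correction, and kept its call there. In place of 11, the list had 7 lower of 14 without Irf5-KO replicate 2, WT replicate 1 or WT replicate 2, and 9 without Irf5-KO replicate 3. These genes are near-identical copies of each other, so their probes may share signal and the 11 are not separate observations; on the WT side replicate 3 was the lowest array for all 11. Ifnl3, an interferon lambda, gave 2.41, 2.16 and 2.28 in Irf5-KO cells against 3.21, 2.87 and 2.52 in WT cells (-0.59, adjusted p = 0.00139), a call lost when only these 6 arrays were fitted (adjusted p = 0.076). Ifnk, interferon kappa, stood at -0.01.

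**Figure D1:**
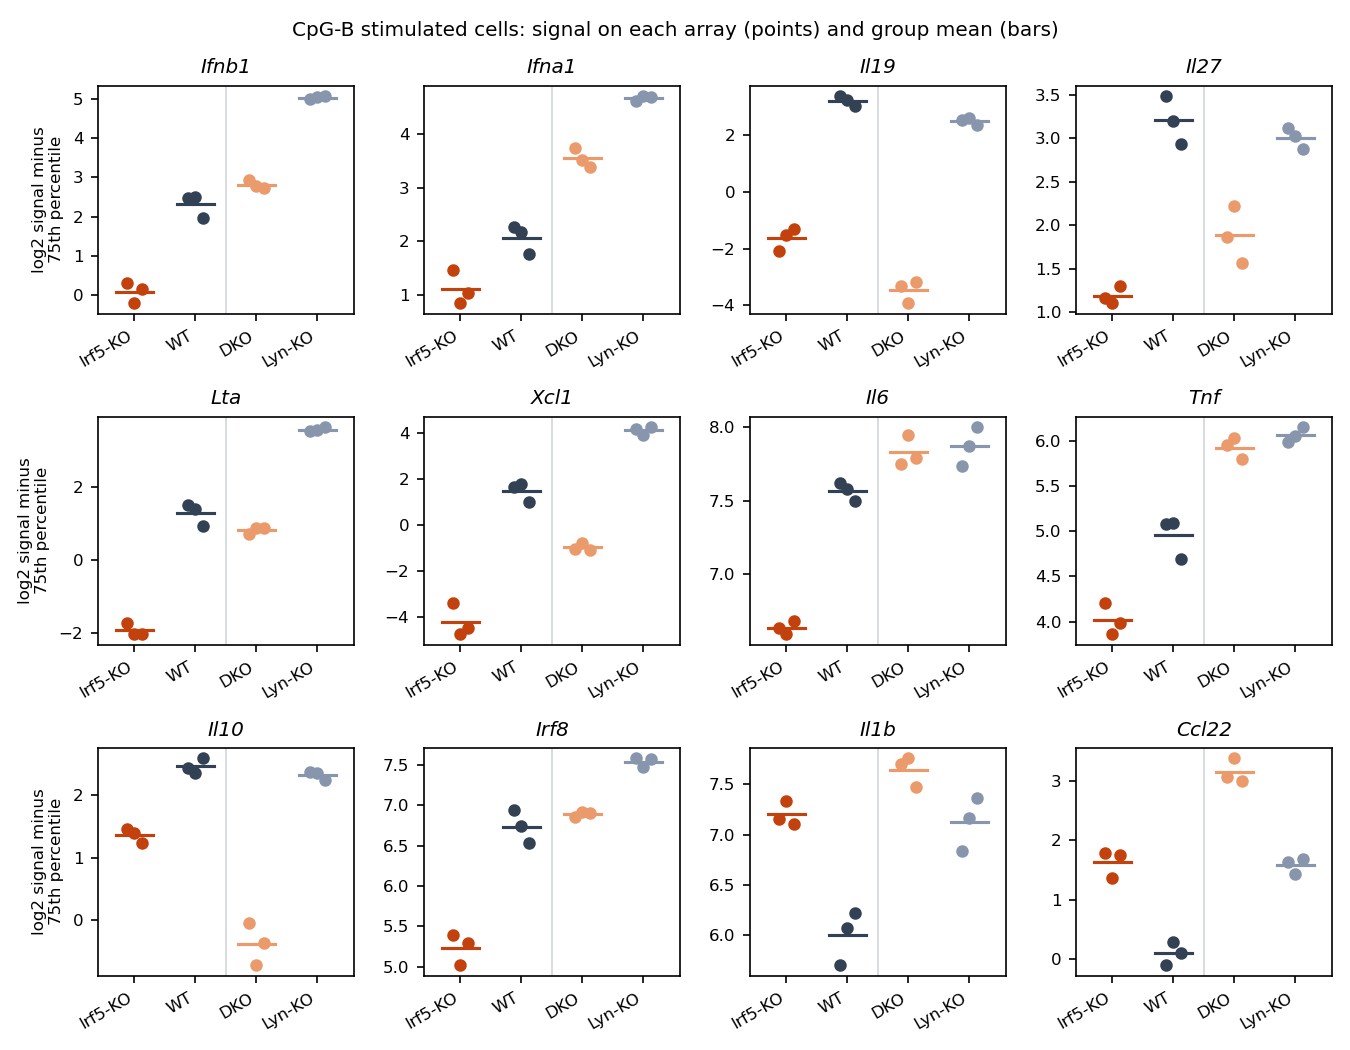
Log2 signal minus the array's 75th percentile (y axis, own range per panel) of 12 genes in CpG-B stimulated Irf5-KO, WT, DKO and Lyn-KO cells. Points are arrays and bars are means of 3 arrays. Ifnb1, Il19, Lta and Xcl1 were lower without Irf5 with and without Lyn, while Il6 and Tnf were lower in Irf5-KO than in WT cells and did not pass the test between DKO and Lyn-KO cells. The difference between the 2 effects passed for Il6 and not for Tnf.

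Inflammatory cytokine genes changed in both directions, with 2 higher and 9 lower of 17 tested and a median of -0.65. The largest change was in Il19, a member of the interleukin-10 family. It gave -2.09, -1.51 and -1.30 in Irf5-KO cells, against 3.36, 3.22 and 3.01 in WT cells, a log2 change of -4.83 (SE 0.34, adjusted p = 5.7e-09), or 28.5-fold. The Il19 window printed above was the only one among the cytokines with an ISRE, in 1 of 13 windows. Interleukin-27 is a dimer of p28, encoded by Il27, and EBI3. Il27 gave 1.16, 1.10 and 1.30 in Irf5-KO cells against 3.48, 3.20 and 2.93 in WT cells (-2.02, SE 0.16, adjusted p = 2.02e-08). Ebi3 gave 7.93, 7.86 and 7.87 against 8.84, 8.74 and 8.66 (-0.86, SE 0.05, adjusted p = 1.38e-09). Both chains were lower, with no overlap of arrays in either.

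Il6 and Tnf were lower by nearly 1 unit. Il6, encoding interleukin-6, gave 6.63, 6.59 and 6.68 in Irf5-KO cells, against 7.62, 7.58 and 7.50 in WT cells (-0.93, SE 0.12, adjusted p = 1.14e-05). Tnf, encoding tumour necrosis factor, gave 4.21, 3.86 and 3.98 in Irf5-KO cells, against 5.08, 5.09 and 4.69 in WT cells (-0.94, SE 0.17, adjusted p = 0.000293). In both genes all 3 Irf5-KO arrays lay below all WT arrays. Il12a, the p35 chain of interleukin-12, changed by -0.97 (adjusted p = 0.00477), and by -0.46 under normexp background correction. Osm, encoding oncostatin M, changed by -0.65. Il13 was not well above background on any Irf5-KO array, and its WT signal was at least 2.55-fold higher. Its fitted change was -2.37, or -0.76 under normexp.

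Il10, the anti-inflammatory cytokine gene, gave 1.46, 1.39 and 1.24 in Irf5-KO cells with CpG-B, against 2.43, 2.36 and 2.59 in WT cells (-1.10, SE 0.19, adjusted p = 0.000225). Without stimulation the order was reversed, at -0.83, -0.48 and -0.91 in Irf5-KO and -2.44, -1.93 and -1.61 in WT cells, a log2 change of 1.25. The 2 effects differed by -2.35 in the interaction test. The 2 genes that were higher were Il1b and Il18. Il1b gave 7.16, 7.34 and 7.11 in Irf5-KO cells, against 5.70, 6.07 and 6.22 in WT cells (1.21, SE 0.14, adjusted p = 3.58e-06), and Il18 changed by 0.56. Both encode precursors that caspase-1 cleaves. Il1a had the largest positive value of the list, 2.14, but did not pass (adjusted p = 0.128).

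TNF superfamily ligands, which act on neighbouring lymphocytes and myeloid cells, had 2 higher and 5 lower of 9 tested, with a median of -0.63. The median was -0.14 with no filter on dim probes. It was -0.24 over the smaller set of members whose probes were well above background on all arrays. Lta, encoding lymphotoxin alpha, gave -1.72, -2.03 and -2.01 in Irf5-KO cells, against 1.51, 1.39 and 0.92 in WT cells (-3.19, SE 0.18, adjusted p = 3.86e-10). The difference was 9.13-fold with no overlap. Tnfsf14, encoding LIGHT, was well above background on 2 of 3 Irf5-KO arrays and on all WT arrays and changed by -3.01, or by -1.79 under normexp. Tnfsf9, the 4-1BB ligand gene, changed by -0.84. Ltb (0.53) and Cd70 (0.74) were the 2 higher ones, so the lymphotoxin chains Lta and Ltb changed in opposite directions.

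Chemokine genes were divided, with 6 higher and 5 lower of 20 tested and a median of 0.27. Xcl1, encoding the ligand of the receptor XCR1 on type 1 conventional dendritic cells, was among the genes with the largest negative changes. It gave -3.40, -4.75 and -4.48 in Irf5-KO cells, where 1 of 3 arrays was well above background, against 1.68, 1.79 and 1.02 in WT cells (-5.71, SE 0.28, adjusted p = 3.74e-11). Under normexp the change was -3.60, and without stimulation it was -1.75. Ccl4, a macrophage inflammatory protein, gave 7.09, 7.09 and 7.07 in Irf5-KO cells against 8.44, 8.37 and 8.37 in WT cells (-1.30, SE 0.16, adjusted p = 7.64e-06). Ccl3, a related chemokine, changed by -0.84. Ccl1, a ligand of CCR8, changed by -1.94 (adjusted p = 0.00812). Ccl5, which attracts T cells (-0.50), lost its call on leaving out Irf5-KO replicate 1 or WT replicate 3 (adjusted p = 0.0658 and 0.0737) and with no filter on dim probes (adjusted p = 0.0502).

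On the higher side was Ccl22, which attracts regulatory T cells through CCR4. It gave 1.79, 1.36 and 1.75 in Irf5-KO cells, against -0.10, 0.30 and 0.10 in WT cells (1.54, SE 0.24, adjusted p = 9.48e-05). Cxcl2, which attracts neutrophils, gave 0.47, -0.96 and -1.34 against -2.31, -2.23 and -2.48 (1.73, SE 0.35, adjusted p = 0.00111). Its Irf5-KO arrays were spread over nearly 2 units but all lay above the WT arrays. Cx3cl1 (0.93) and Cxcl16 (0.65), the membrane-bound chemokines, were higher too. The interferon-inducible chemokines Cxcl10 (0.43, adjusted p = 0.362) and Cxcl9 (0.24, adjusted p = 0.74) and the monocyte attractant Ccl2 (0.16) did not pass.

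Among 25 TLR9 signalling components, 7 were higher and 2 lower, with a median of 0.12. That is 36% called, near the 30.9% of all named genes. Tlr9 itself, the receptor for CpG DNA, gave 2.81, 2.64 and 2.70 in Irf5-KO cells, against 2.77, 2.79 and 2.64 in WT cells (-0.02, adjusted p = 0.884), and its chaperone Unc93b1 stood at -0.10. The adaptor Myd88 changed by 0.33 (SE 0.06, adjusted p = 0.000673) and the endosomal transporter Slc15a4 by 0.38. Irak3, a negative regulator of the pathway, changed by 0.97, and Tlr13, an endosomal receptor for bacterial ribosomal RNA, by 1.07 (1.63, 1.80 and 1.68 in Irf5-KO cells, 0.58, 0.63 and 0.69 in WT cells).

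Among 9 IRF family genes, Irf5 itself was the 1 higher, and Irf8 and Irf4 were the 2 lower (33.3% called, against 30.9% of all named genes). Irf8, a lineage factor of plasmacytoid and type 1 conventional dendritic cells, gave 5.39, 5.02 and 5.30 in Irf5-KO cells, against 6.94, 6.74 and 6.53 in WT cells (-1.50, SE 0.09, adjusted p = 8.11e-10). Without stimulation the difference was -0.01, with 7.55, 7.41 and 7.51 in Irf5-KO and 7.46, 7.54 and 7.49 in WT cells. The signal therefore lay apart between genotypes only in the stimulated cells, and the interaction was -1.50 (adjusted p = 2.8e-07). Irf4 changed by -0.41 with CpG-B and by 0.59 without it, an interaction of -1.0. Irf7, the interferon-induced family member that drives Ifna transcription, stood at 0.01 (adjusted p = 0.983) and Irf1 at 0.30 (adjusted p = 0.316), which did not pass.

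NF-kB subunits and feedback regulators had 4 higher and 4 lower of 27 tested and a median of -0.02. The share called, 29.6%, was near the 30.9% of all named genes. Nfkbia and Tnfaip3, the classical feedback inhibitors, stood at -0.11 and -0.01 and did not pass. Nfkbiz, a nuclear cofactor needed for Il6 induction, gave 2.84, 2.38 and 2.76 in Irf5-KO cells, against 3.73, 3.64 and 3.42 in WT cells (-0.94, SE 0.14, adjusted p = 6.23e-05). The phosphatase gene Dusp1 changed by -0.98 and the cyclooxygenase gene Ptgs2 by 1.04. Of 16 AP-1, ATF and EGR factors, 2 were higher and 5 lower (43.8% called, against 30.9% of all named genes). Among the lower ones were Batf3 (-0.86), a factor of type 1 conventional dendritic cells, Fosl2 (-0.83) and Jun (-0.74).

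Of 40 antiviral interferon-stimulated genes, 2 were higher and 3 lower (12.5% called, against 25.5% of all features), with a median of 0.00, and 9 had an unadjusted p under 0.05. Without stimulation their median was -0.3. In the interaction test 7 of the 40 passed as higher with CpG-B, against 7.48% of all features, and 1 as lower. Ifit1 gave 5.97, 6.16 and 6.25 in Irf5-KO cells, against 5.83, 5.99 and 5.87 in WT cells (0.23, SE 0.26, adjusted p = 0.602). Isg15 gave 9.91, 9.95 and 9.80 against 9.95, 9.96 and 10.28 (-0.18, adjusted p = 0.613). Rsad2, encoding viperin, stood at 0.67 (adjusted p = 0.0879), Ifit2 at 0.36 (adjusted p = 0.339) and Oas2 at 0.08. Of 19 interferon-inducible GTPases, which act against intracellular pathogens, 0 were called by limma and 0 had an unadjusted p under 0.05. Their median was 0.14 and their range -0.15 to 0.59, with Gbp2 at the top (adjusted p = 0.216). Without stimulation the median of the GTPases was -0.41, and 0 passed the interaction test. The antiviral genes that passed were Cmpk2 (0.57) and Ifi35 (0.18) on the higher side and Ifitm1 (-0.58), Samd9l (-0.34) and Adar (-0.19), whose probes differed in sign, on the lower side. The calls of Cmpk2, Ifi35 and Adar were lost on leaving out any 1 of the 6 arrays (adjusted p up to 0.122, 0.164 and 0.109). Between DKO and Lyn-KO cells, 5 of the 40 antiviral genes were higher and 1 lower, and 3 of the 19 GTPases were higher. Of all features, 16.8% were higher and 14.7% lower in that comparison. Rsad2 was among the 5 (0.80, adjusted p = 0.0352), but lost its call with no filter on dim probes (adjusted p = 0.0746).

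**Figure D2:**
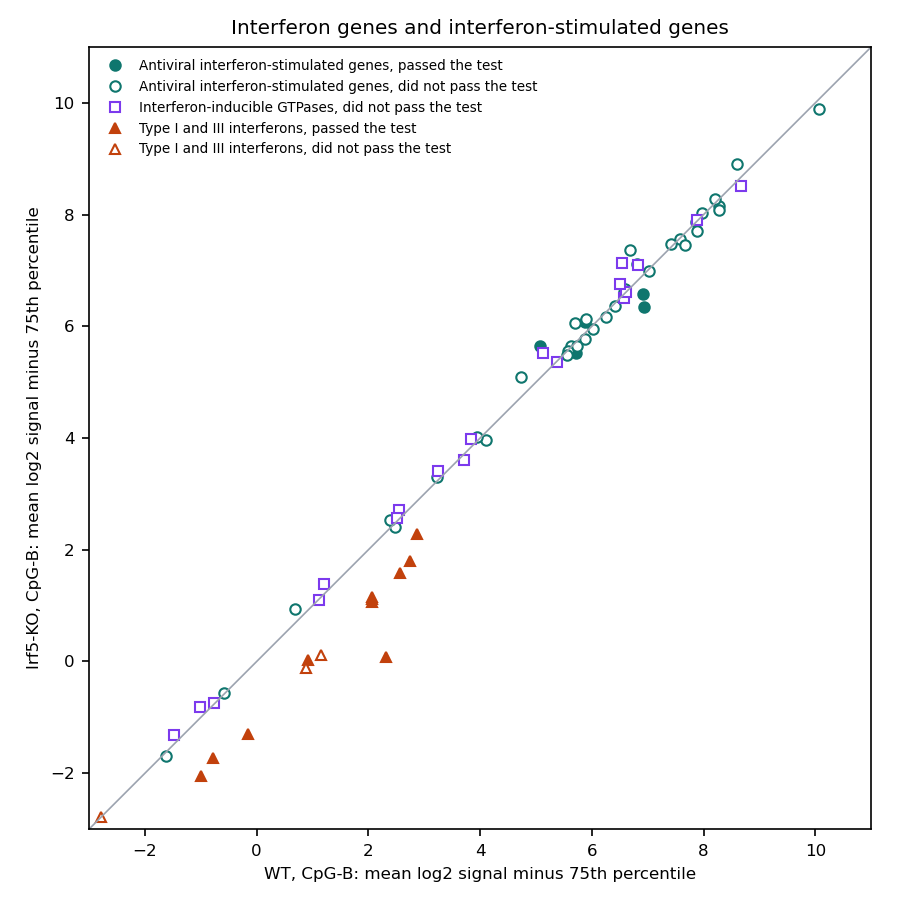
Mean log2 signal minus the array's 75th percentile in Irf5-KO cells with CpG-B (y axis) against WT cells with CpG-B (x axis), 3 arrays each, for 14 interferon genes, 40 antiviral interferon-stimulated genes and 19 interferon-inducible GTPases, with the line of equal signal. Ifnk lies on the line and the other interferon genes lie below it, and 0 of 19 GTPases passed the test.

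Around these genes, 5 were higher and 3 lower of 19 genes of interferon receptor signalling (42.1% called, against 30.9% of all named genes). Ifnlr1, the specific chain of the interferon lambda receptor, was not well above background on any Irf5-KO array. Its WT signal of 0.24, 0.49 and 0.04 was at least 16.5-fold higher (adjusted p = 1.8e-11). The fitted change was -4.53, and -2.31 under normexp; without stimulation it was -1.17. Stat4, which relays interleukin-12 signals, changed by 0.90, the kinase Tyk2 by 0.59 and Jak2 by 0.36. Cytosolic nucleic acid sensors had 2 higher and 2 lower of 13, with a median of 0.08 (30.8% called, against 30.9% of all named genes).

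Maturation genes were divided as well, with 6 higher and 4 lower of 25 and a median of 0.08 (40% called, against 30.9% of all named genes). The costimulatory genes Cd40 (0.01), Cd86 (0.09) and Cd80 (0.16) and the migration receptor Ccr7 (-0.15) did not pass. Cd83, a maturation marker that stabilises MHC class II at the surface, gave 7.40, 7.38 and 7.43 in Irf5-KO cells, against 6.71, 6.65 and 6.68 in WT cells (0.72, SE 0.05, adjusted p = 5.6e-09). Icosl changed by 0.76. The adhesion receptor Cd44 gave 4.50, 4.35 and 4.32 against 5.48, 5.48 and 5.28 (-1.02, adjusted p = 3e-07), and Fscn1, which bundles actin in dendrites, changed by -0.93.

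MHC class II genes were higher without Irf5, with 8 higher and 0 lower of 12 and a median of 0.44. The loading chaperones H2-DMa (0.64), H2-DMb1 (0.72) and H2-DMb2 (0.81) and the modulators H2-Oa (0.55) and H2-Ob (0.24) all passed, H2-Ob not under normexp or when only these 6 arrays were fitted. H2-DMb2 gave 0.99, 0.84 and 1.21 in Irf5-KO cells, against 0.30, 0.22 and 0.09 in WT cells (adjusted p = 2.83e-05). Of the peptide-binding chains, H2-Aa (0.33) and H2-Eb2 (0.94) passed, while H2-Ab1 (0.06) and H2-Eb1 (0.05) did not. MHC class I loading and immunoproteasome genes had 4 higher and 0 lower of 18, with a median of 0.18 (22.2% called, against 30.9% of all named genes). The largest of these was Tap2 (0.61), a subunit of the peptide transporter.

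Among Src-family kinases and genes linked to inhibitory ITIM receptors, 10 were higher and 3 lower of 22, with a median of 0.20. Lyn gave 1.51, 1.47 and 1.46 in Irf5-KO cells, against 2.29, 2.17 and 2.19 in WT cells (-0.73, SE 0.09, adjusted p = 3.97e-06). Fgr, a myeloid Src-family kinase, gave 2.10, 2.41 and 2.21 against 3.42, 3.47 and 3.54 (-1.24, SE 0.08, adjusted p = 1.22e-09). The kinase Syk (0.71) and the inhibitory receptors Sirpa (1.05), Siglecg (0.77) and Pirb (0.69) were higher.

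Metabolic and stress lists leaned to the higher side. Sterol and fatty acid genes had 22 higher and 0 lower of 27, with a median of 0.55, against 14.4% of all features higher. Hmgcs1, an early enzyme of cholesterol synthesis, gave 7.12, 7.12 and 7.23 in Irf5-KO cells, against 6.42, 6.55 and 6.40 in WT cells (0.70, SE 0.09, adjusted p = 6.78e-06). Sqle (0.70) and Lss (0.86) of the same route, the regulator Srebf2 (0.55) and the desaturase Scd1 (1.37) were higher as well. So were Nr1h3 (0.83), encoding a liver X receptor, and its target Abca1 (1.11, or 0.63 under normexp), a cholesterol exporter. Without stimulation the median of the list was -0.09, and 18 of the 27 passed the interaction test as higher with CpG-B, against 7.48% of all features.

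Glycolysis and hypoxia genes had 13 higher and 1 lower of 21, with a median of 0.45. The lactate exporter Slc16a3 gave 1.74, 2.03 and 1.72 in Irf5-KO cells, against 0.47, 0.50 and 0.58 in WT cells (1.31, SE 0.10, adjusted p = 2.9e-08). Slc2a1, a glucose transporter, changed by 0.57 and Ldha by 0.45, while Hk2, a hexokinase, changed by -0.36. Nitric oxide, kynurenine and itaconate enzymes had 4 higher and 0 lower of 9. These were Arg2 (1.33), Acod1 (1.09), Nos2 (0.95) and Gch1 (0.53), which make urea, itaconate, nitric oxide and the cofactor of nitric oxide synthase.

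Antioxidant genes had 10 higher and 1 lower of 15, with a median of 0.48, or 0.42 with genes below background in 1 group set at their bound. Hmox1, encoding heme oxygenase, gave 2.98, 3.1 and 2.59 in Irf5-KO cells, against 1.58, 1.76 and 1.70 in WT cells (1.21, SE 0.20, adjusted p = 0.000171). Srxn1 (1.25), Gclm (0.61), Txnrd1 (0.48) and their regulator Nfe2l2 (0.63) were higher, and Gsr, encoding glutathione reductase, was lower (-0.76). Nqo1 was not well above background on any WT array and was at least 2.47-fold higher in Irf5-KO cells (fitted 2.40, or 0.78 under normexp). Endoplasmic reticulum chaperones had 10 higher and 0 lower of 17 (median 0.25), with Herpud1 at the top (0.77).

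The integrated stress response list had 17 higher and 3 lower of 22 and a median of 0.38, and its median without stimulation was 0.27. Asns, encoding asparagine synthetase, changed by 1.11 with CpG-B and by 1.13 without it, and Trib3 by 0.65 and 0.91. Nupr1, a stress-induced nuclear protein on the same list, changed the other way. It gave 3.85, 4.27 and 4.13 in Irf5-KO cells, against 7.19, 7.13 and 7.07 in WT cells (-3.05, SE 0.14, adjusted p = 1.67e-11), 8.26-fold lower, with an interaction of -3.60. Cell cycle genes had 0 higher and 10 lower of 25, with a median of -0.19 (40% called, against 30.9% of all named genes). On the probe used per gene the lowest was -0.45, while other probes of Cdk1 and Birc5 reached -0.63 and -0.53. Ccne1, encoding cyclin E, was at -0.45, while Birc5, encoding survivin, changed by -0.38 and Cdk1 by -0.35. Acute phase and complement genes had 6 higher and 0 lower of 17, with a median of 0.40 (35.3% called, against 30.9% of all named genes). Among the higher ones were Hp (0.76), encoding haptoglobin, and C3ar1 (0.71), encoding a complement receptor. The pattern recognition gene Ptx3 (1.27), the largest value on that list, lost its call on leaving out replicate 2 or 3 of either genotype, with an adjusted p of up to 0.134 without WT replicate 3, and with no filter on dim probes (adjusted p = 0.0748). Under normexp it was 0.70.

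**Figure D3:**
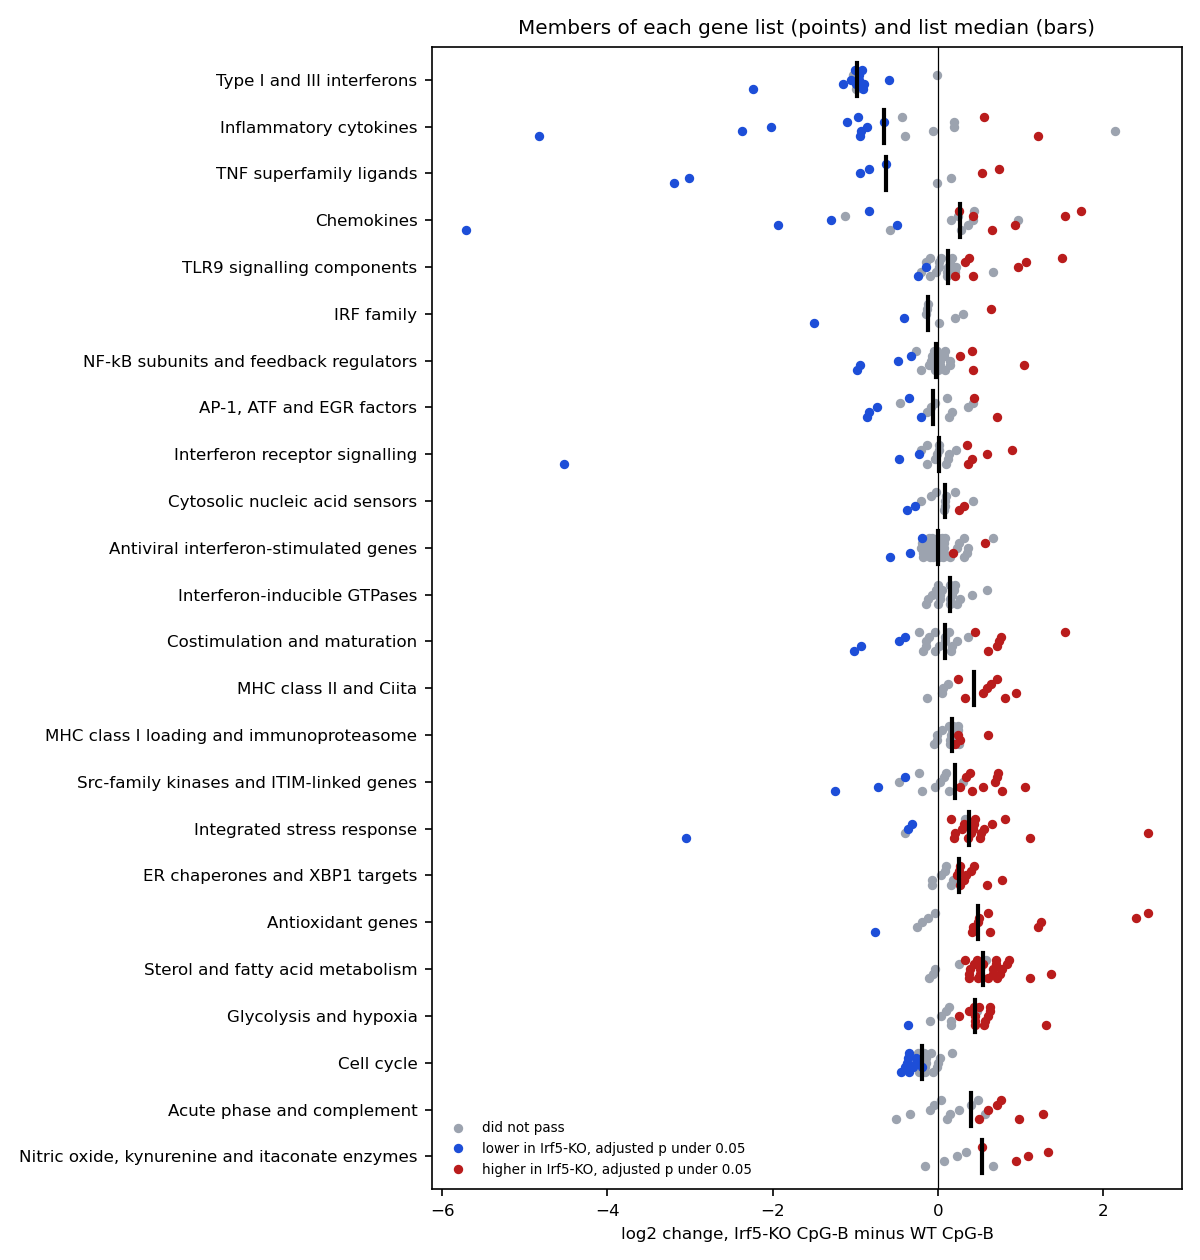
Log2 change in Irf5-KO relative to WT cells, both with CpG-B (x axis), of the members of 24 gene lists (rows). Each point is a gene, coloured by its call at an adjusted p under 0.05, and the black bar is the list median; members below background in 1 group are drawn at their fitted value. Interferon genes cluster near a median of -0.97 and sterol and fatty acid genes near 0.55, while the GTPases had no call.

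Markers of cell types were followed over whole lists, since cultures can differ in makeup. The signal of 15 plasmacytoid markers was summed, in multiples of an array's 75th percentile. It was 737 to 801 on the Irf5-KO arrays and 853 to 926 on the WT arrays. A sum of this kind, here and below, is weighted towards the brightest probes and does not show that a whole list moved. In this list 0 were higher and 6 lower, with a median change of -0.1, or -0.05 without stimulation. The markers Siglech (0.03, adjusted p = 0.916) and Bst2 (0.00, adjusted p = 0.997) did not pass. Bst2 is also on the list of antiviral interferon-stimulated genes, so its value does not speak for these cells alone. Ccr9, a homing receptor of these cells, gave 1.36, 0.97 and 1.34 in Irf5-KO cells, against 3.20, 2.79 and 2.71 in WT cells (-1.68, SE 0.14, adjusted p = 5.48e-08). Klk1 (-3.14), Lag3 (-1.06) and Spib (-0.49) were also lower. Irf8, a bright member of the list that was also lower, is given above.

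The 13 type 1 conventional markers summed to 102 to 109 in Irf5-KO and 121 to 125 in WT cells, with 5 higher and 3 lower. Their median change was 0.29, against the direction of the sum, and 0.16, 0.19 and -0.06 within the 3 slides. Clec9a was higher by 0.29 (adjusted p = 0.0156), but lost its call under normexp (adjusted p = 0.0559) and without Irf5-KO replicate 3 (adjusted p = 0.102). Tlr12, a receptor for profilin, gave -0.81, -1.29 and -0.98 in Irf5-KO cells, against 2.30, 1.87 and 1.62 in WT cells (-2.96, SE 0.15, adjusted p = 6.45e-11), and stood at -0.08 without stimulation. Naaa (1.64), an enzyme of lipid amide breakdown, and the scavenger receptor Cd36 (1.72) of the same list were higher.

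Type 2 conventional markers summed to 348 to 358 in Irf5-KO and 338 to 356 in WT cells. Monocyte and macrophage markers summed to 235 to 245 in Irf5-KO and 177 to 209 in WT cells, with 8 higher and 0 lower of 15. Among these were Adgre1 (0.61), encoding the antigen used to stain mouse macrophages, and the cathepsin gene Ctsk (1.48). The median change of this list was 0.6 with CpG-B and already 0.45 without stimulation. The lysozyme gene Lyz2 (0.60) lost its call on leaving out replicate 1 or 3 of Irf5-KO or replicate 1 or 2 of WT (adjusted p up to 0.112). The B lineage list summed to 197 to 228 in Irf5-KO and 167 to 186 in WT cells. Of its 16 genes 5 were higher, Ms4a1 (1.40), which encodes CD20, among them (31.2% called, against 30.9% of all named genes). Its median change was 0.33 with CpG-B and 0.51 without stimulation, and 0 passed the interaction test. The ranges of the sums overlapped between Irf5-KO and WT cells for neutrophil markers (61.8 to 82.3 and 78.0 to 84.9), basophil and mast cell markers (55.9 to 67.1 and 64.3 to 73.9) and T and NK cell markers (13.1 to 14.4 and 11.6 to 13.4). The erythroid and megakaryocyte list, of which only 5 genes were tested, summed to 16.5 to 24.6 in Irf5-KO and 12.7 to 14.1 in WT cells. In it 1 gene was higher, a megakaryocyte gene, and 0 were lower (20% called), so the sum does not stand for erythroid cells. Whether cell makeup takes part in the changes above was not tested.

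The 15 named genes with the largest negative changes ran from -5.71 to -3.41 and had a median of -0.39 without stimulation. They held genes of varied function. Il19 and Xcl1 are described above. Rhbdl3, a rhomboid-family gene, was not well above background on any Irf5-KO array, against 1.69, 1.73 and 1.18 in WT cells, which was at least 38.4-fold higher. Hsd11b1, which regenerates active glucocorticoid, gave -2.45, -2.63 and -2.71 in Irf5-KO cells against 2.31, 2.09 and 2.05 in WT cells (-4.75, SE 0.17, adjusted p = 9.91e-13). Parm1 gave -2.41, -2.69 and -2.72 against 1.12, 1.09 and 1.00 (-3.68, SE 0.09, adjusted p = 3.06e-15). Arrays of each genotype were tight in both genes, and the groups lay over 3 units apart.

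Among the rest, Fam89a gave 0.58, 0.76 and 0.59 in Irf5-KO cells against 5.29, 5.38 and 5.15 in WT cells (-4.63, SE 0.25, adjusted p = 1.35e-10), and it already differed by -2.65 without stimulation. Plekhs1 (-4.18) and Gm13889 (-4.98) were well above background in both genotypes. Prg3, an eosinophil granule gene, was measured on 1 of 3 Irf5-KO arrays and changed by -4.20, or -1.93 under normexp. For 7 of the 15, among them the tight junction gene Ocln (at least 7.19-fold), the cornified envelope gene Scel (at least 4.52-fold) and the protease gene Tmprss4 (at least 5.85-fold), the signal was below background on all Irf5-KO arrays, and bounds ran from 4.52-fold to 38.4-fold. Under normexp the fitted changes of Rhbdl3, Ocln, Scel and Tmprss4 were -3.44, -1.38, -1.12 and -1.45. In DKO against Lyn-KO cells, all 15 were also called lower. Of 12 of the 15 with a promoter window, 1 held the ISRE, that of Il19.

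The 15 largest positive changes were smaller, from 1.99 to 3.43, and 9 of the 15 genes were not well above background on any WT array, with bounds from 1.73-fold to 6.47-fold. Dnah2, a dynein heavy chain gene, gave 1.82, 1.94 and 1.40 in Irf5-KO cells, against -1.30, -0.93 and -0.82 in WT cells (2.74, SE 0.31, adjusted p = 2.23e-06). Pdpn, encoding podoplanin, gave 0.04, 0.29 and -0.18 against -2.66, -2.43 and -1.93 (2.39, SE 0.32, adjusted p = 1.37e-05). Both were measured on all 6 arrays and did not overlap. Cldn1, a claudin gene, was at least 2.10-fold higher, and Tlx2, a homeobox gene, at least 2.93-fold, with fitted changes of 0.83 and 0.78 under normexp. Syt10, with the largest fitted change (3.43, at least 6.47-fold), lost its call under normexp (1.40) and stood at -1.04 between DKO and Lyn-KO cells (adjusted p = 0.308). In DKO against Lyn-KO cells, 9 of the 15 were also called higher. Of 10 genes with a window, 0 held the ISRE.

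**Figure D4:**
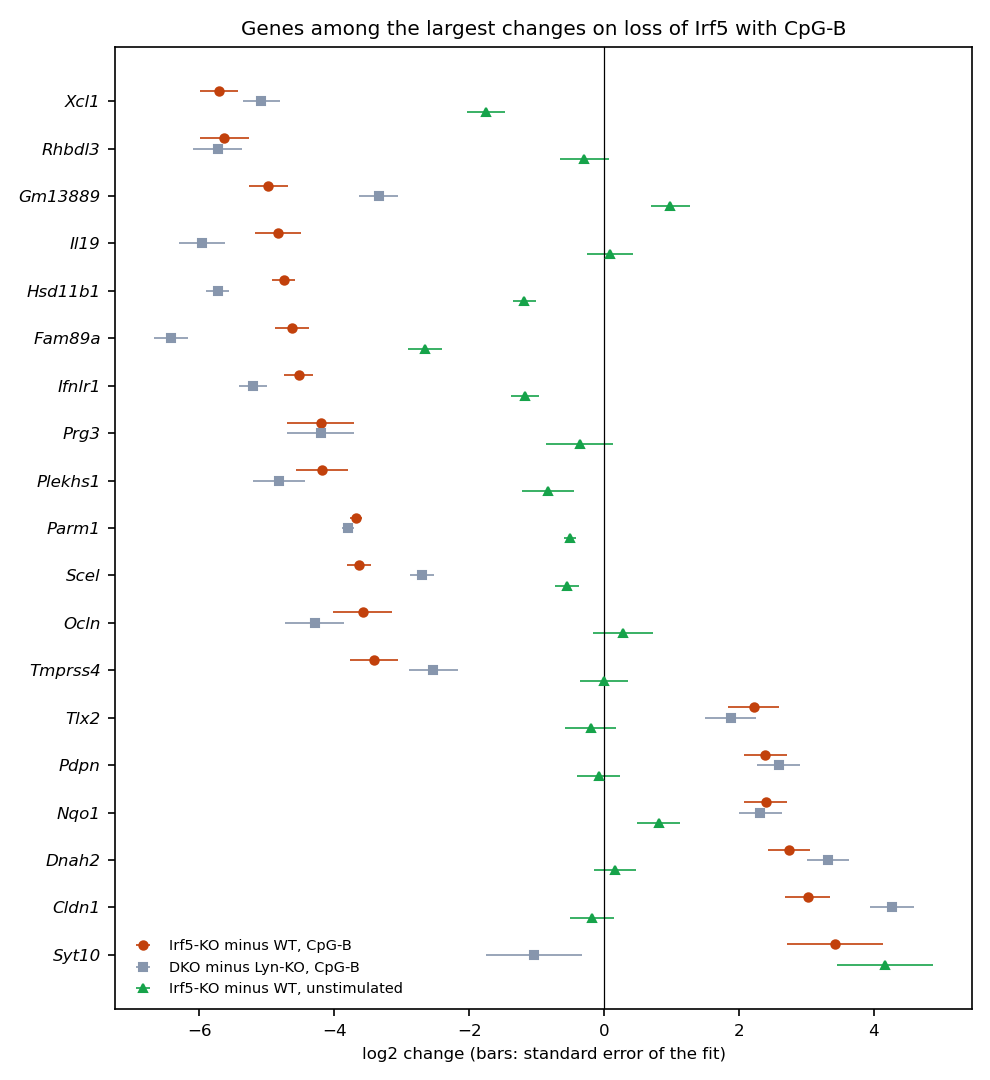
Log2 changes (x axis, bars are the standard error of the fit) of 19 genes (rows) named in the text from among the 15 largest negative (13 drawn) and 15 largest positive (6 drawn) changes, in 3 comparisons of 3 against 3 arrays: Irf5-KO minus WT with CpG-B (circles), DKO minus Lyn-KO with CpG-B (squares) and Irf5-KO minus WT unstimulated (triangles). Circles and squares lie on the same side of 0 for every gene drawn except Syt10, and the triangles lie closer to 0 than the circles, again except for Syt10.

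The same loss of Irf5 was measured a second time in cells that lack Lyn, on arrays that enter the comparison above only through the shared filter, choice of probe and estimate of spread. Between DKO and Lyn-KO cells with CpG-B, 6374 features differed (31.5%), 3405 higher (16.8%) and 2969 lower (14.7%), and 469 (2.32%) and 518 (2.56%) passed 2-fold. Of the 2914 features higher in Irf5-KO cells, 2034 were also higher in DKO cells, which was 69.8% of the first list and 59.7% of the second, and 52 were lower. Of the 2240 lower ones, 1543 were also lower in DKO cells, 68.9% of the first list and 52.0% of the second, and 23 were higher. For features past 2-fold, 329 of 395 lower ones (83.3%) and 248 of 379 higher ones (65.4%) were called the same way, with 3 and 5 called the opposite way. Interferon genes had 0 higher and 13 lower of 14 in this second comparison, with a median of -1.25, and sterol genes had 22 higher and 0 lower of 27.

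**Figure D5:**
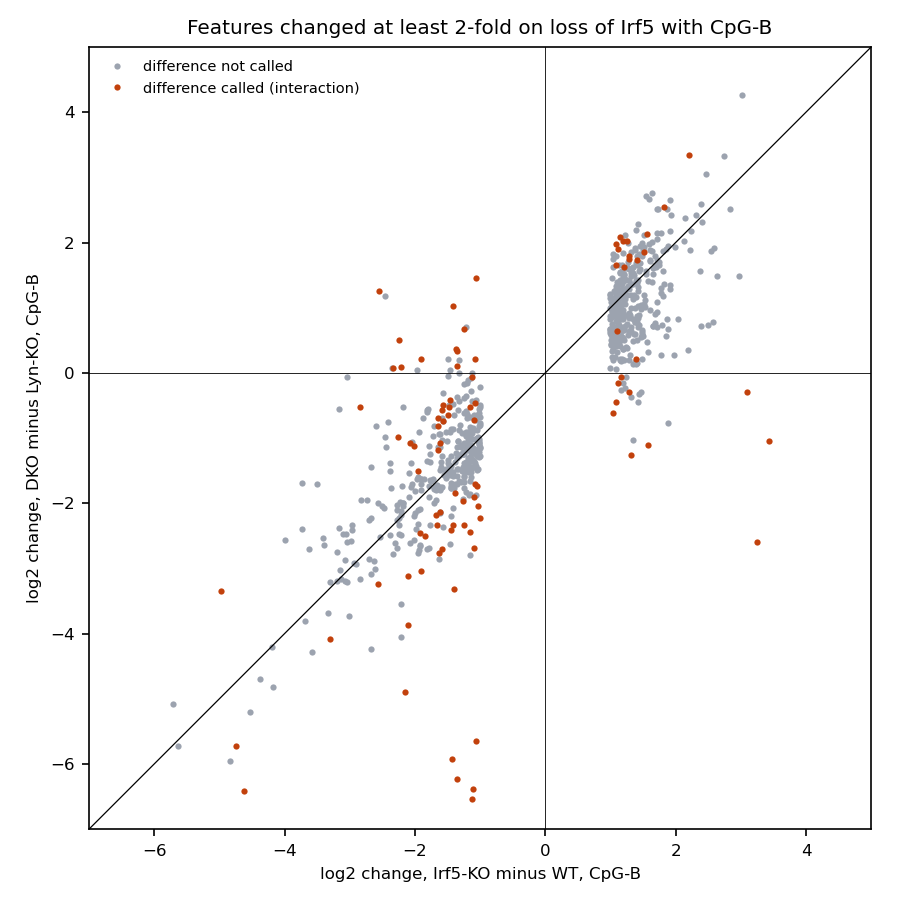
Log2 change on loss of Irf5 in Lyn-deficient cells (DKO minus Lyn-KO, y axis) against that in Lyn-sufficient cells (Irf5-KO minus WT, x axis), all with CpG-B, for the 774 features called and changed at least 2-fold between Irf5-KO and WT cells. Each point is a feature, orange where the 2 changes differed in the interaction test, and the diagonal marks equal change; 91 points are orange.

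The size of the Irf5 effect differed between Lyn-sufficient and Lyn-deficient cells for 730 features (3.61%) in the interaction test. With no filter on dim probes the count was 351, and with only the 12 arrays of these groups in the fit it was 304. Il6 was among them. It gave 7.75, 7.95 and 7.79 in DKO cells, against 7.74, 7.87 and 8.0 in Lyn-KO cells (-0.04, adjusted p = 0.85), and the effects differed by -0.89 (adjusted p = 0.0057). The Il6 signal of the Irf5-KO arrays was below that of every array of the other 3 groups. Tnf had the same pattern of values (-0.94 and -0.14), but its difference of -0.80 did not pass. Irf8 changed by -1.50 in Lyn-sufficient and -0.65 in Lyn-deficient cells, a difference of -0.85. Il10 changed by more without Lyn, with -0.04, -0.72 and -0.36 in DKO cells against 2.37, 2.35 and 2.24 in Lyn-KO cells (-2.69), a difference of 1.59 (adjusted p = 0.00194).

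Further genes differed in this way. Tirap, an adaptor of TLR2 and TLR4, gave a log2 change of 0.42 in Irf5-KO cells and a value of -0.17 in DKO cells, a difference of 0.59. Among the antioxidant genes, 5 of 15 differed, all with a more negative or less positive change in Lyn-sufficient cells. Txnrd1 changed by 0.48 with Lyn and 1.23 without it, and Gsr by -0.76 and -0.08. Mcpt8, a basophil protease gene, gave -1.83, -1.19 and -1.09 in Irf5-KO cells against -0.10, -0.38 and -0.44 in WT cells, but 0.22, 0.30 and 0.46 in DKO cells against -0.56, -1.44 and -1.36 in Lyn-KO cells, a difference of -2.51. Of 9 basophil and mast cell markers, 0 were higher and 2 lower in the first comparison and 5 were higher and 1 lower in the second, and 4 differed between them. Whether the number of such cells in the cultures takes part was not tested.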

How the data were processed

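Total RNA of 24 cultures was hybridised in 1 colour to Agilent mouse arrays. The deposited scanner files hold the processed signal, an intensity that Feature Extraction 10.7.3.1 had background-subtracted and detrended but not scaled between arrays, per the file headers. A table of log2 values deposited for the whole series, by comparison with the scanner files shifted per array and centred per probe by the authors (95% of the differences between arrays lay within 0.0179 of those computed here, over 17008 probes), served as an alternative; its column medians ran from -0.273 to 0.375. How its authors scaled it is not stated.

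Here log2 of the processed signal minus the array's 75th percentile was used, after leaving out controls and 4351 spot values marked as outliers. Of 55681 probes, 26640 passed the filter, detection above background in each of the 3 arrays of some group, with 17 missing values, and a feature with several probes (4555) took the one with the highest mean. Accessions were matched to RefSeq (GRCm38.p6), naming 26762 probes and 12648 of the 20209 features; the files annotate mm9, so gene coordinates come from RefSeq only. All 24 arrays were fitted in limma 3.58.1 (R 4.3.3) with 1 mean per group, 2-sided, adjusted by Benjamini-Hochberg within each contrast, and tested on simulated data. A gene not well above background on any array of 1 group is given as a lower bound against the lowest measurable signal. With 3 arrays a group, the number of arrays limits the precision.

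Genes could be named if they were Irf5, Lyn or Dock2, among the 15 largest changes in a direction that were called and did not overlap, among the 10 largest shared with the Lyn-deficient cells, near Irf5, or in 1 of the 33 gene lists. Members and lists were chosen with earlier results of these data known, and the examples in the text after their values were seen. The examples favour stable calls (sensitivity counts are given at the end). Some genes are not reported here. Alternatives were normexp background correction with quantile normalisation, quantile normalisation alone, scaling to the median of detected probes, a trended and robust variance prior, no filter or a stricter filter on dim probes, every probe of a gene, the series table, a fit of only the arrays compared, the slide as a block, and leaving out each array.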

Additional observations from a re-analysis of the deposited data

Results flagged for a closer look

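These genes of the text had an Irf5 effect that differed between groups by the interaction test (limma, all features). For stimulation, only genes whose interaction value is printed above are listed. Other named genes passed that test too, and so did all 15 genes with the largest negative changes. Those 15 were chosen by a contrast that the interaction contains. Set against the change without stimulation, the change on loss of Irf5 with CpG-B differed by -2.35 for Il10, -1.0 for Irf4, -1.50 for Irf8 and -3.60 for Nupr1. Each of these was lower in Irf5-KO cells with CpG-B, while without stimulation Il10 and Irf4 were higher, Nupr1 stood at 0.55 and did not pass (adjusted p = 0.0804), and Irf8 stood at -0.01.

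Set against the change in Lyn-deficient cells (DKO minus Lyn-KO), all with CpG-B, the change in Lyn-sufficient cells (Irf5-KO minus WT) was more negative or less positive for Il6 (-0.89), Irf8 (-0.85), Gsr (-0.68), Txnrd1 (-0.75) and Mcpt8 (-2.51), and more positive or less negative for Il10 (1.59), Fam89a (1.79) and Tirap (0.59). These kept their call under every alternative in which they were scored. The fit of every probe was not scored gene by gene. The differences of Srxn1 (-0.78), Nfe2l2 (-0.54), Cd86 (-0.54) and Tnfaip3 (-0.51) each lost their call under 1 alternative. Those of Il27 (-0.90), Gm13889 (-1.64), Jun (0.37), Hsd11b1 (0.98) and Syt10 (4.47) lost it under 2 or more. The difference of Syt10 rests on values with a wide spread in the Lyn-deficient groups, -1.27, -0.81 and 1.28 in DKO cells and -0.81, 0.72 and 2.40 in Lyn-KO cells.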

How the results depend on the processing

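Between Irf5-KO and WT cells with CpG-B, counts of called features stayed within 1.5 times under every alternative, and leaving out 1 array gave 4205 to 4803 called, 2347 to 2680 higher and 1800 to 2123 lower. With the replicate number, which is the slide, as a block, 5734 were called. Deviations of same-numbered arrays correlated at 0.09, -0.02 and -0.084, so same-numbered arrays share a slide but are not treated as pairs. The second comparison ranged from 5444 to 5910 on leaving out 1 array and was 6889 with the replicate block. For the interaction with CpG-B, 2135 to 2529 were called on leaving out 1 array (2985 with the block), and 977 were higher with no filter on dim probes, against 1512. The interaction with Lyn was the least stable. Against 730 called, 398 higher and 332 lower, it gave 351, 202 and 149 with no filter, 304, 162 and 142 with only the arrays of the contrast, 978 with the block, and 490 to 922, 270 to 549 and 220 to 373 on leaving out 1 array, the lowest lower count without Irf5-KO replicate 2. Without a filter more features are tested, and with fewer arrays fewer degrees of freedom remain; other causes were not tested. Of the 138 called genes named here, 14 lost their call between Irf5-KO and WT cells under some alternative, 11 of them on leaving out 1 array, and 0 changed direction. Among all 297 called genes that the naming rule allows the counts were 91 and 73, so the genes named as examples are steadier than those they were taken from. The fit of every probe was scored by counts of features only, not gene by gene, and the stricter filter held 121 of the 166 named genes. Of the 2 probes of Ifna12, 1 was called when each was tested on its own, and likewise for Fosl2.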

Other observations

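Cd86, a costimulatory ligand, gave 5.62, 5.70 and 5.81 in Irf5-KO cells against 5.65, 5.63 and 5.59 in WT cells with CpG-B (0.09, adjusted p = 0.449, limma), but differed by 0.63 between DKO and Lyn-KO cells (adjusted p = 2.07e-06). Tnfaip3, encoding a feedback inhibitor of NF-kB, stood at -0.01 in the first comparison and rose by 0.50 in the second. Cell cycle genes had 10 of 25 lower without Irf5 beside WT cells and 23 of 25 lower between DKO and Lyn-KO cells, with medians of -0.19 and -0.42, and 6 of the 25 differed in the interaction test. Of all features, 11.1% and 14.7% were lower in these comparisons, and 3.61% differed in that test.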
